A study of Homo sapiens with 6 samples.

Results

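The nucleosome remodelling and deacetylase (NuRD) corepressor was followed through 10 of its subunit genes, CHD4, HDAC1, HDAC2, MTA1, MTA2, MTA3, RBBP4, RBBP7, MBD3 and GATAD2A, which were picked by symbol from the 78932 genes of the count table. All 10 passed the filter on low counts (a count of 10 or more in 3 or more of the 6 libraries), as did 18474 genes in all. The study sequenced poly(A)-selected RNA from T24, an established human urothelial carcinoma line, after transient transfection with KeygenMAX3000. The siNC group received a control siRNA and the siTRIM28 group an siRNA against TRIM28, with 3 libraries described as biological replicates in each group and every library labelled as batch 1. The labels name neither the siRNA sequence nor the time after transfection, so effects of the siRNA itself and of the loss of TRIM28 cannot be told apart, and all values describe a single cell line.

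NuRD joins an ATP-driven nucleosome remodeller to histone deacetylases in one complex, so that it can move nucleosomes and strip acetyl groups from histone tails at the same sites. MTA proteins form the scaffold that holds the deacetylases and the histone chaperones RBBP4 and RBBP7, an MBD protein links this part to GATAD2, and GATAD2 in turn holds the CHD remodeller. TRIM28 (KAP1) is the corepressor of KRAB zinc finger proteins, and its PHD finger and bromodomain are known to contact the CHD3 remodeller of NuRD. Most positions in the complex can be filled by either of several paralogs, so the balance between paralogs was described alongside each gene.

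TRIM28 itself had 1419, 1393 and 1382 counts in the siNC libraries and 130, 96 and 109 in the siTRIM28 libraries, and the log2 fold change was -3.54 (SE 0.072, adjusted p = 1.03e-10). Total counts ran from 11712623 to 14018052 per library. Replicates differed by more than sampling noise in every pair. For siNC replicates 1 and 2 and siTRIM28 replicates 2 and 3 the excess was small (chi-square per degree of freedom 1.08 and 1.24). The other pairs were much further apart (4.59 to 6.99). siNC replicate 3 and siTRIM28 replicate 1 thus stood apart, and calls that changed without one of the libraries are given below. Libraries as close as these 2 pairs may not be independent cultures, which was not tested. Each group may then hold fewer than 3 independent samples, and SDs, SEs and p-values may be too small. Of the 6 epithelial markers KRT8 (1296 to 1680 counts) and KRT18 (1070 to 1260 counts) were expressed in all libraries. KRT7 was low (37 to 41 counts in siNC and 49 to 58 in siTRIM28), and KRT19, EPCAM and CDH1 had at most 7 counts in any library. Of the 7 urothelial markers UPK1B and KRT20 were at 0 throughout. The highest, UPK1A, had 4 to 17 counts in siNC and 34 to 58 in siTRIM28. Leukocyte and endothelial markers had at most 11 counts in any library. The mesenchymal gene VIM had 14228 to 15259 counts in siNC and 16692 to 18573 in siTRIM28. Of the 4 fibroblast genes only COL1A1 was higher, with 9 to 17 counts in siNC and 36 to 45 in siTRIM28. PDGFRA had 14 to 19 counts in siNC and 12 to 17 in siTRIM28, and COL1A2 and DCN had at most 2 in any library. The part of the UPK1A, VIM and COL1A1 shifts in the member values was not tested. In such bulk RNA, fewer cells of a kind and less RNA per cell cannot be told apart.

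The subunits did not move as a block. GATAD2A, MBD3, RBBP4 and HDAC2 fell, MTA2 and HDAC1 rose, and CHD4, MTA1, MTA3 and RBBP7 did not pass the test. Thus 6 of 10 members were called at an adjusted p under 0.05 (edgeR quasi-likelihood test, adjusted over all 18474 genes), against 41.8% of all genes tested. The 2 higher members stood against 21.3% of genes called higher, and the 4 lower ones against 20.5% called lower. Of the 6 called, HDAC1 was the least firm and kept its call in 4 of 13 alternative settings, given below. The siNC and siTRIM28 libraries did not overlap for 7 members, against 52% of all genes, so with so much of the transcriptome moving these shares set no member apart by themselves. The median log2 fold change was -0.09 over the members and 0.02 over all genes tested. These medians were -0.06 and 0.05 with upper-quartile scaling, and the median of all genes was -0.00091 without siTRIM28 replicate 1. Summed over the 10 members, the normalised level was 1891 to 1931 CPM (counts scaled to a common library size with TMM factors) in siNC and 1788 to 1823 CPM in siTRIM28.

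**Figure D1:**
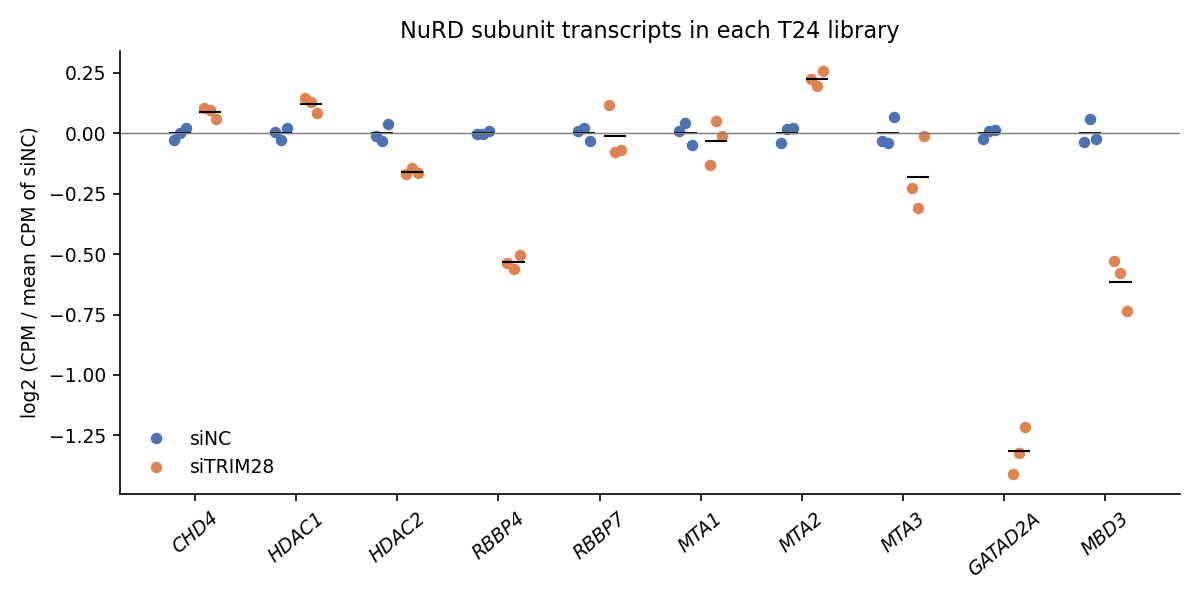
Level of each NuRD subunit in every library, as log2 of its CPM over the mean CPM of the siNC libraries. Each point is 1 library, horizontal lines are group means (n = 3 each). GATAD2A lies lowest (log2 fold change -1.31), MBD3 and RBBP4 follow (-0.61 and -0.53), and MTA2 lies highest (0.23).

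The promoters of the 3 members that fell most are shown with that of HDAC1. It was called higher, though not under every alternative, and lies on the same chromosome arm as RBBP4. The sequences are the 250 bases before the RefSeq start site (GRCh38.p14), 5′ to 3′ on the gene's own strand. For each gene the RefSeq start nearest to its 5′ end in the count table was used. Capitals mark the CCAAT box, which reads ATTGG on the strand shown, and the CCGGAAG core that ETS factors prefer.
GATAD2A, chr19:19385593-19385842, plus strand: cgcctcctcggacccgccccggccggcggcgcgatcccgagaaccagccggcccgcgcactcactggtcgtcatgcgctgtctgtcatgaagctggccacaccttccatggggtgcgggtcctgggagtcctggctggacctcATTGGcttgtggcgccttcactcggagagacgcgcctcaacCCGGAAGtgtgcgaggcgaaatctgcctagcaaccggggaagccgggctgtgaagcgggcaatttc
MBD3, chr19:1592866-1593115, minus strand: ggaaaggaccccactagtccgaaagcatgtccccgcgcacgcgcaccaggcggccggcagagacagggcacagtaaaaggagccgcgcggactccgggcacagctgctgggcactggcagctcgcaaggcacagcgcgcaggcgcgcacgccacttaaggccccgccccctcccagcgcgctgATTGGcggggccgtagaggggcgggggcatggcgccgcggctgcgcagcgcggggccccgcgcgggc
RBBP4, chr1:32650958-32651207, plus strand: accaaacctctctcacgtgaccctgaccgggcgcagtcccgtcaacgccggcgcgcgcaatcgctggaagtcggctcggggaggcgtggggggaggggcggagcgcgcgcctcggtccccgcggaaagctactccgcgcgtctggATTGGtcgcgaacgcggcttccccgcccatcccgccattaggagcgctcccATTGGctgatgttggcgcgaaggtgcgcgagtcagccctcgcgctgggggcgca
HDAC1, chr1:32291833-32292082, plus strand: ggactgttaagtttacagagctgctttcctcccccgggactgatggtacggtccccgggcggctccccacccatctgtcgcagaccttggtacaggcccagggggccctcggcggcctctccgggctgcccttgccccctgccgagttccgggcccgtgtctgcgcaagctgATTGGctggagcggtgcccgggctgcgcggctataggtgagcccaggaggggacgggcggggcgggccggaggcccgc

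In windows that also took in 50 bases after the start, CCAAT was found on either strand in 5 of the 10 members (HDAC1, RBBP4, RBBP7, MBD3 and GATAD2A) and in 37.0% of the 11033 promoters of tested genes. In each of these 5 the box read in reverse, and its first base lay between 107 and 54 bases before the start. RBBP4 alone held a pair of them. CCGGAAG was found in CHD4 and GATAD2A and in 19.5% of tested promoters. These matches depend on the start site taken, a choice made after a first scan had been seen. For CHD4 and HDAC2 the nearest start lay inside the annotated gene span, away from its 5′ end (windows chr12:6606402-6606701 and chr6:113971099-113971398). Over every RefSeq start of each gene, CCGGAAG was also found in MTA2, with 3 matches, and in RBBP7, so in 4 members against 22.3% of genes. CCAAT was then found in the same 5 members against 43.1% of genes, with 3 matches in RBBP4 summed over its 2 windows. Where such windows overlap, the same box can be counted in each. The E2F octamers TTTCGCGC, TTTGGCGC and TTTCCCGC, the NRF1 core GCATGCGC and the cAMP response element TGACGTCA were in no member window. They were also rare in tested promoters (1.09, 1.09, 2.68, 5.71 and 3.27%, in that order), so their absence from 10 members says little. Only exact matches were counted, and variant sites were not sought. The CCAAT and CCGGAAG boxes were shared by members that fell, rose and did not pass the test. The member windows were 64 to 79.7% G and C and held 24 to 49 CpG dinucleotides, where the median tested promoter had 65.3% and 26.

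GATAD2A (ENSG00000167491, chr19:19385826-19508931 in GRCh38), the zinc finger subunit that bridges the MBD protein and the remodeller, showed the largest change of the 10. Its CPM was 103, 105 and 106 in the siNC libraries and 39.3, 41.8 and 45.0 in the siTRIM28 libraries. The highest siTRIM28 library stayed well under the lowest siNC library. The level fell by 59.8% (log2 fold change -1.31, SE 0.058, 95% interval -1.43 to -1.20, adjusted p = 2.25e-08), which placed GATAD2A 117 from the bottom among 12828 genes with a mean of at least 50 counts, ordered by fold change. The 3 genes annotated inside its span had no more than 2 counts in any library. GATAD2B, its paralog, did not pass the test (24.3 ± 0.89 CPM in siNC and 26.1 ± 0.018 CPM in siTRIM28, SD, n = 3, log2 fold change 0.10 with a 95% interval of -0.02 to 0.22). Measured per kilobase of exon, GATAD2A supplied 84.3% of the GATAD2 reads in siNC and 66.7% in siTRIM28. The sum of both paralogs fell by 49.2%, from 16.7 ± 0.26 to 8.49 ± 0.38 RPKM (CPM per kilobase of exon).

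MBD3 (ENSG00000071655, chr19:1573596-1592801), the MBD protein that binds methylated DNA poorly, also fell. It had 35.1, 37.4 and 35.4 CPM in siNC and 24.9, 24.1 and 21.6 CPM in siTRIM28, and the groups did not overlap. The log2 fold change was -0.61 (SE 0.071, adjusted p = 3.38e-05), a level that fell by 34.4%. MBD2, the methyl-CpG binder that takes the same position in other NuRD complexes, was 154 ± 4.11 and 143 ± 1.32 CPM and did not pass the test (log2 fold change -0.10, adjusted p = 0.0663). MBD3 was the minor of the pair, with 14.4% of the MBD reads per kilobase in siNC and 10.6% in siTRIM28. A gene annotated across MBD3 and its neighbour UQCR11 on the same strand, ENSG00000267059, had 502 to 797 counts where MBD3 had 256 to 518. These came to 84.8 to 90.1% of the counts of MBD3 and UQCR11 together, so most reads of MBD3 appear to be counted for both annotations, and its own log2 fold change was -0.24 (adjusted p = 0.0341).

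The histone chaperones RBBP4 and RBBP7, WD40 proteins that bind histones and are shared with several other complexes, moved apart. RBBP4 (ENSG00000162521, chr1:32651142-32680653) had 117, 117 and 118 CPM in siNC and 81.2, 79.6 and 83.1 CPM in siTRIM28. The groups did not overlap and the spread within each was small, and the log2 fold change was -0.53 (SE 0.044, adjusted p = 2.50e-06). The level of RBBP4 fell by 30.9%. RBBP7 (ENSG00000102054, chrX:16839283-16870153) had 197, 199 and 191 CPM in siNC and 213, 186 and 187 CPM in siTRIM28, where siTRIM28 replicate 1 lay above all siNC libraries and the other two below them. Its log2 fold change of -0.01 (95% interval -0.11 to 0.10, adjusted p = 0.941) became -0.07 (adjusted p = 0.0980) without siTRIM28 replicate 1. RBBP4 thus went from 31.8% to 24.5% of the reads per kilobase of the pair, and their sum fell by 10.1%. SYNC overlaps 748 bases of RBBP4 on the opposite strand and fell too (359 to 642 counts, log2 fold change -0.48, adjusted p = 1.51e-04), and TXLNG overlaps 5235 bases of RBBP7 on the opposite strand (1214 to 1886 counts, -0.35, adjusted p = 5.94e-05). Whether the counting used strand is not given in the sources used here, and the part of these overlaps in the member counts was not tested. The 7 annotated RBBP4 pseudogenes had at most 8 counts.

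The deacetylases HDAC1 and HDAC2, the class I enzymes of NuRD, SIN3 and CoREST, shifted by small amounts in opposite directions. HDAC2 (ENSG00000196591, chr6:113933028-114011308) had 465, 458 and 481 CPM in siNC and 416, 424 and 418 CPM in siTRIM28. HDAC1 (ENSG00000116478, chr1:32292083-32333626) had 128, 125 and 129 CPM in siNC and 141, 139 and 135 CPM in siTRIM28. Neither gene overlapped between the groups. HDAC2 fell by 10.5% (log2 fold change -0.16, SE 0.037, adjusted p = 0.00447), and HDAC1 was higher by 8.71% (0.12, SE 0.043, adjusted p = 0.0396). The HDAC1 call was lost when any library but siTRIM28 replicate 1 was left out (log2 fold change 0.10 to 0.13, highest adjusted p = 0.169), so that without any of the other 5 libraries MTA2 was the 1 member called higher. By CPM HDAC2 was the higher of the pair, but its annotated exon length is greater (15333 bases against 3987). Scaled by these lengths the pair was nearly even per kilobase, with HDAC1 at 51.1% in siNC and 55.9% in siTRIM28. The sum of the pair was 62.4 ± 1.33 RPKM in siNC and 62.0 ± 0.85 RPKM in siTRIM28, with overlapping libraries (exact permutation p = 0.9, two-sided).

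HDAC1 and RBBP4 are 317515 bases apart on chromosome 1 and moved in opposite directions. Of the 7 tested genes between them 2 were higher and 1 was lower, where 21.3% of all tested genes were called higher and 20.5% lower. These shares do not set the interval apart. The called genes were TSSK3 (log2 fold change 0.90, adjusted p = 0.0151), FAM229A (0.59, adjusted p = 0.0157) and MARCKSL1 (-0.89, adjusted p = 1.31e-04), the next gene after HDAC1, all named after their values were seen.

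The MTA scaffold proteins differed among themselves. MTA2 (ENSG00000149480, chr11:62593214-62601487) had 68.6, 71.4 and 71.6 CPM in siNC and 82.4, 80.8 and 84.4 CPM in siTRIM28, with no overlap. It was higher by 17.0% (log2 fold change 0.23, SE 0.049, adjusted p = 0.00298). MTA1 (ENSG00000182979, chr14:105419820-105470230), with 97.4 to 104 CPM in siNC and 92.1 to 104 CPM in siTRIM28, overlapped between the groups and did not pass the test (log2 fold change -0.03, 95% interval -0.14 to 0.08, adjusted p = 0.710), and its sign turned without siTRIM28 replicate 1 (0.02). MTA3 (ENSG00000057935, chr2:42494569-42756946) was the scarcest of the family, with 31.8, 31.6 and 34.0 CPM in siNC and 27.8, 26.3 and 32.3 CPM in siTRIM28. Its groups overlapped through siTRIM28 replicate 3, and its log2 fold change of -0.18 (adjusted p = 0.0999) became -0.27 (adjusted p = 0.0133) without that library. MTA2 supplied 48.5% of the MTA reads per kilobase in siNC and 53.4% in siTRIM28, MTA1 42.4% and 39.1%, and MTA3 9.01% and 7.49%. The sum of the family was 34.1 ± 0.50 and 36.3 ± 1.03 RPKM.

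CHD4 (ENSG00000111642, chr12:6570082-6614524), the ATPase that slides nucleosomes, was the most abundant member by CPM. It had 644, 657 and 666 CPM in siNC and 706, 702 and 682 CPM in siTRIM28, so the groups did not overlap. The log2 fold change of 0.09 (SE 0.035, 95% interval 0.02 to 0.16) missed the threshold (adjusted p = 0.0661) and passed it without siTRIM28 replicate 1 (0.08, adjusted p = 0.0221). CHD3, the paralog that TRIM28 is known to bind, fell, with 443 ± 5.41 CPM in siNC and 365 ± 16.8 CPM in siTRIM28 (log2 fold change -0.28, SE 0.042, adjusted p = 2.50e-04). CHD4 therefore went from 56.2% to 62.3% of the CHD4 and CHD3 reads per kilobase, and the sum of the pair fell by 4.16%. The same-strand gene ENSG00000285238 spans CHD4 and its neighbour NOP2 and had 9125 to 11053 counts, between 98.1 and 98.7% of the counts of CHD4 and NOP2 together, so reads of CHD4 appear to be counted for both annotations. CHD5, the remaining remodeller of the family, lies under a gene of the same kind (ENSG00000285629, 19777 to 28644 counts). CHD5 did not pass the test (log2 fold change 0.11, adjusted p = 0.113). The part of these overlaps in the counts of CHD4 and CHD5 was not tested.

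Ordered by level per length in siNC, CHD4 came first with 51.6 ± 0.88 RPKM (SD, n = 3), followed by HDAC1 with 31.9 ± 0.59, HDAC2 with 30.5 ± 0.78 and RBBP7 with 26.7 ± 0.54 RPKM. The middle of the order held MTA2 with 16.6 ± 0.39, MTA1 with 14.5 ± 0.46, GATAD2A with 14.1 ± 0.20 and RBBP4 with 12.4 ± 0.060 RPKM, and the end MBD3 with 4.54 ± 0.16 and MTA3 with 3.07 ± 0.13 RPKM. HDAC1 and HDAC2 overlapped between libraries, as did MTA1 and GATAD2A. This order rests on the annotated exon lengths. In siTRIM28 the order was the same except that GATAD2A, at 5.67 ± 0.38 RPKM, came after RBBP4 at 8.59 ± 0.18 RPKM. HDAC1 (34.7 ± 0.79 RPKM) and HDAC2 (27.3 ± 0.27 RPKM) no longer overlapped there, while HDAC2 overlapped RBBP7 (26.6 ± 2.07 RPKM) and MBD3 (2.98 ± 0.22 RPKM) overlapped MTA3 (2.72 ± 0.29 RPKM).

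**Figure D2:**
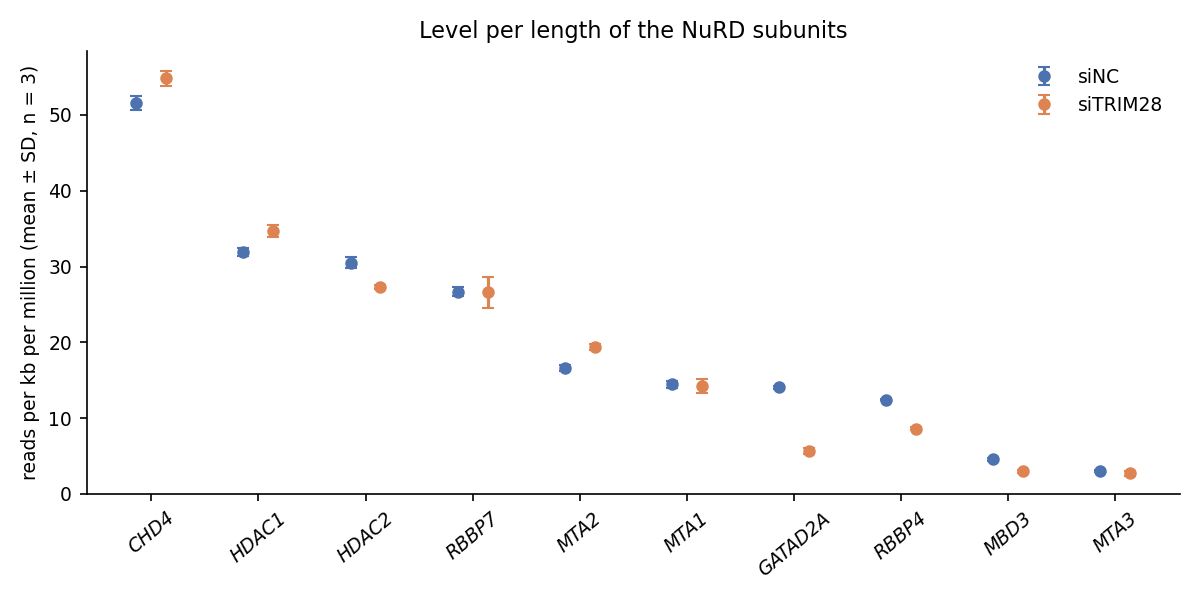
Level per length of the 10 subunits in RPKM (linear axis from 0), as mean ± SD of 3 libraries per group, ordered by the siNC mean. GATAD2A drops from 14.1 to 5.67 RPKM and below RBBP4, while the other 9 genes hold their order.

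To set paralogs against each other within a library, the log2 ratio of their CPM was compared between the groups for 8 pairs. The ratio of GATAD2A to GATAD2B moved most, from 2.10 ± 0.045 to 0.68 ± 0.096 (difference -1.41). RBBP4 over RBBP7 differed by -0.52, MBD3 over MBD2 by -0.51 and MTA1 over MTA2 by -0.26. In the other direction MTA2 over MTA3 differed by 0.41, CHD4 over CHD3 by 0.37 and HDAC1 over HDAC2 by 0.28. In these 7 pairs the groups did not overlap, and the two-sided exact permutation test gave p = 0.1, the smallest that 3 libraries against 3 allow (adjusted over the 8 pairs, exact p = 0.114), so this test could not reach 0.05. The libraries overlapped for MTA1 over MTA3 (difference 0.15, exact p = 0.4), where the difference was 0.047 without siTRIM28 replicate 2, 0.092 without siNC replicate 3 and 0.22 without siTRIM28 replicate 3.

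**Figure D3:**
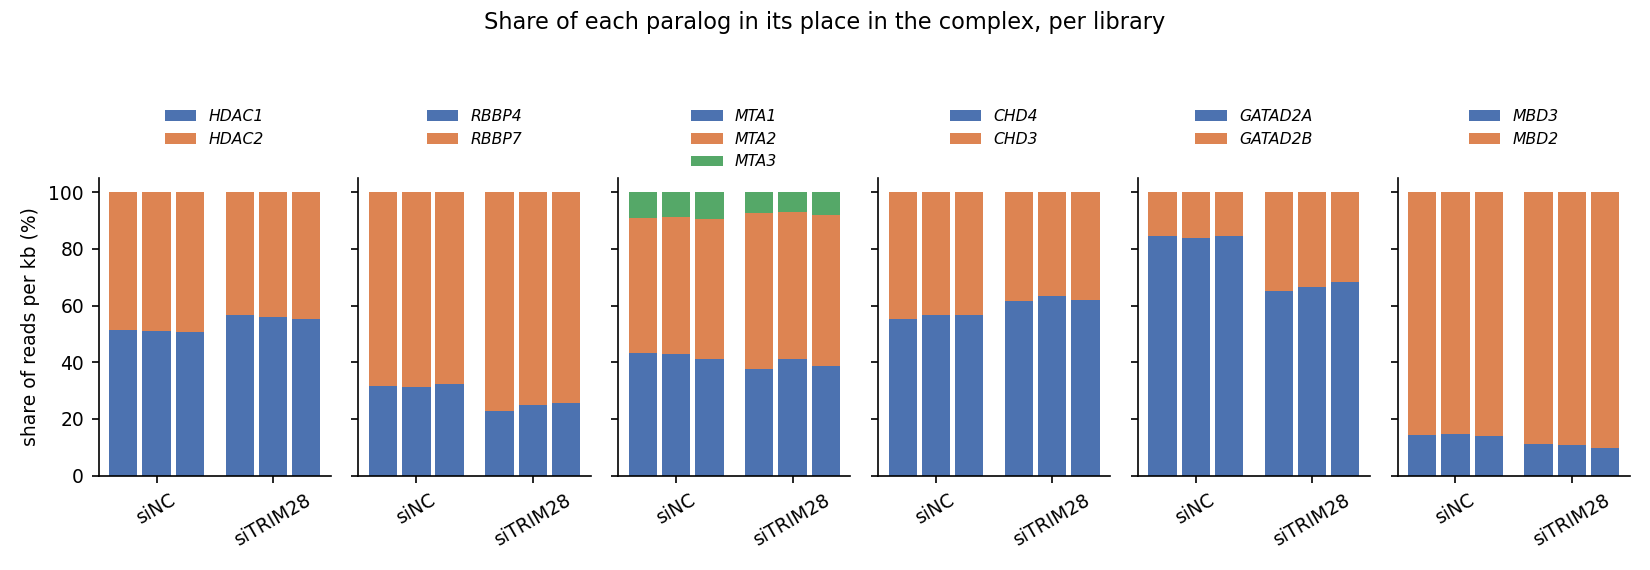
Share of the reads per kilobase taken by each paralog of a position in the complex, with 1 bar per library (siNC replicates 1 to 3, then siTRIM28 replicates 1 to 3). GATAD2A goes from a mean of 84.3% to 66.7%, RBBP4 from 31.8% to 24.5%, MBD3 from 14.4% to 10.6%, HDAC1 from 51.1% to 55.9%, CHD4 from 56.2% to 62.3% and MTA2 from 48.5% to 53.4%.

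Genes around the subunits were taken from lists of paralogs, of complexes that share subunits with NuRD and of its recruiting factors, and their counts are set against the 41.8% of all tested genes called (21.3% higher, 20.5% lower). Of the 6 paralogs and accessory NuRD genes 2 fell and none rose (33.3% called, median log2 fold change -0.13), namely CHD3 and CDK2AP1, a small NuRD subunit (log2 fold change -0.20, adjusted p = 0.0144). This count was 1 without siNC replicate 3. Of the 9 other histone deacetylases 2 rose and 2 fell (44.4% called), with a median of 0.01. The share called was thus under the background in the first list and near it in the second. HDAC9, a class IIa enzyme, was at 15.5 ± 0.54 CPM in siNC and 34.7 ± 2.48 CPM in siTRIM28 (log2 fold change 1.16, adjusted p = 3.06e-07). HDAC10, a polyamine deacetylase, rose by 0.52 (adjusted p = 0.0402) on the log2 scale, at low counts (27 to 43 in siNC and 43 to 50 in siTRIM28). HDAC4 fell by 0.38 (adjusted p = 0.00804) and HDAC8 fell by 0.23 (adjusted p = 0.00769).

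In the other complexes built on HDAC1, HDAC2, RBBP4 or RBBP7 the share of genes called was near or under the 41.8% of all genes. In SIN3, 3 of 15 genes rose and 1 fell (26.7% called, median 0.06). ING1, a reader of histone methylation, rose by 0.56 on the log2 scale (adjusted p = 6.07e-06), the demethylase KDM5A by 0.27 (adjusted p = 0.00152) and the core subunit SAP30 by 0.21 (adjusted p = 0.00899), while SAP130 fell by 0.23 (adjusted p = 0.0180), and 2 genes in place of 4 were called without siNC replicate 2. Of the 9 CoREST genes reported 4 rose (44.4% called, where 21.3% of all genes were called higher, median 0.21). RCOR3 and ZMYM2 rose by 0.56 (adjusted p = 2.77e-04) and 0.48 (adjusted p = 1.36e-04) on the log2 scale, GSE1 by 0.27 (adjusted p = 0.00411) and the demethylase KDM1A by 0.21 (adjusted p = 0.0315, overlapping libraries). Of 13 genes from other complexes that contain RBBP4 or RBBP7, 4 rose and 1 fell (38.5% called, median 0.14), and 3 were called without siNC replicate 1 or without siNC replicate 2.

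Of the Polycomb partners of RBBP4 and RBBP7 in that list, the methyltransferase EZH2 (log2 fold change 0.47, adjusted p = 4.46e-06) and SUZ12 (0.43, adjusted p = 1.23e-04) were higher and EED (-0.39, adjusted p = 3.05e-04), the reader subunit, was lower. CHAF1A, the large subunit of chromatin assembly factor, was higher by 0.16 (adjusted p = 0.0165) on the log2 scale. Of the 4 genes reported for the NCoR complex, which uses HDAC3 instead, 2 fell (50% called, median -0.14). They were TBL1X (-0.95, adjusted p = 2.32e-06) and GPS2 (-0.15, adjusted p = 0.0218), and 1 was called without siNC replicate 2, siNC replicate 3 or siTRIM28 replicate 3. Of the 10 recruiting factors 7 were tested, and ZMYND8, which brings NuRD to damaged chromatin, was the 1 called (14.3%, log2 fold change 0.26, adjusted p = 0.00231). Reference genes were not flat either, since RPLP0 fell by 0.29 (adjusted p = 4.32e-05) and TBP rose by 0.34 (adjusted p = 0.00635) on the log2 scale, and the other 4 of 6 did not pass.

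**Figure D4:**
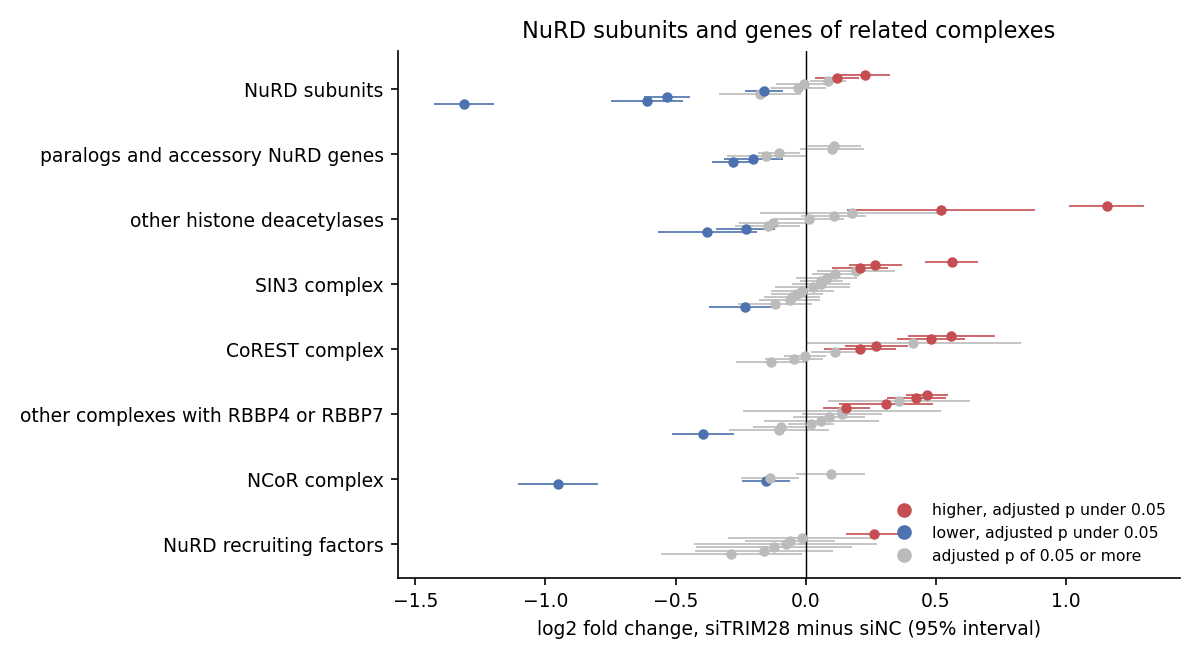
Log2 fold change of each tested gene reported (siTRIM28 minus siNC) with its 95% interval, in the 10 NuRD subunits and 7 related lists, coloured by call. GATAD2A lies at -1.31 in the NuRD row, TBL1X at -0.95 in the NCoR row and HDAC9 at 1.16 among the other deacetylases.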

How the data were processed

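RNA-seq counts per gene were deposited as 1 table for the 6 libraries. Per the labels and the submitters' processing notes, the authors trimmed reads with fastp 0.23.1, aligned them with STAR 2.7.6a to GRCh38 and counted with featureCounts; the strand setting is not given in the sources used here. A second deposited table of genes selected by the authors, with RPKM, fold changes and p-values, was not used. From the counts, genes that reached 10 counts in 3 or more libraries were kept, scaled by TMM and tested with the quasi-likelihood test of edgeR 4.0.16 (R 4.3.3), siTRIM28 against siNC with no covariate, and p-values were adjusted by Benjamini and Hochberg over all genes tested. Intervals are log2 fold changes with a normal approximation from the SE, not adjusted for the number of genes. CPM used TMM-scaled totals, and RPKM also the exon length in the table, taken as annotated. Which exons were used in these cells was not examined, so levels and shares set between genes depend on that length. Paralog ratios were log2 CPM with a prior count of 2, tested by exact permutation. Promoters came from RefSeq (GRCh38.p14). The RefSeq start nearest to the 5′ end of the gene in the table was chosen after a first motif scan over all starts had been seen. A gene that did not pass may still have changed. How many changes the fit missed in these libraries was not tested. Alternatives were RLE and upper-quartile scaling, DESeq2 1.42.0, limma-voom (limma 3.58.1), no filter, a replicate block, each library left out, and the closest libraries summed.

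The members and lists were chosen with earlier results of these data known. All members and TRIM28 are named. From the lists 2 genes are not reported here and entered no count of a list. Of each list, all called genes could be named, or, with more than 4 called, the 2 highest and the 2 lowest by fold change, besides genes overlapping a member and its pseudogenes. UQCR11, NOP2 and the genes between HDAC1 and RBBP4 were added after their values were seen. Counts per library limit precision. The edgeR p-values set the difference between the groups against the spread between these libraries, with information on spread shared across genes. They do not cover spread between independent cultures beyond these libraries.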

Additional observations from a re-analysis of the deposited data

How the results depend on the processing

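GATAD2A, MBD3, RBBP4, HDAC2, MTA2 and TRIM28 kept their direction and their call under all 13 alternatives, with GATAD2A between -1.37 and -1.27 on the log2 scale. The number of members called was 5 to 7 and of those called lower 4 to 5. The number called higher was 1 with DESeq2, with no filter beyond 1 count in total, with the replicate block, with the closest libraries summed, where HDAC1 lost its call (adjusted p 0.0124 to 0.197 over its alternatives), and 1 to 3 with single libraries left out. It was 3 with upper-quartile scaling, with limma-voom and without siTRIM28 replicate 1, where HDAC1 kept its call and CHD4 gained one (adjusted p = 0.0148, 0.0394 and 0.0221). MTA1 turned to 0.0052 with upper-quartile scaling and ranged from -0.078 to 0.021 with single libraries left out. RBBP7 turned to 0.028 with upper-quartile scaling and 0.032 with the closest libraries summed, and ranged from -0.072 to 0.019 with single libraries left out. The causes were not tested.

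Correlations of same-numbered deviations were 0.066, -0.024 and 0.051, and those of the other pairs of libraries ran from -0.074 to 0.049. With 3 libraries per group this check cannot decide whether the replicate numbers pair the libraries. With the replicate number as a block 6 members were called, 1 higher and 5 lower, since MTA3 passed (adjusted p = 0.0434) and HDAC1 did not (adjusted p = 0.0655), and 7910 genes in all against 7723.

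Of the lists, paralogs and accessory genes had 1 called with the closest libraries summed and 1 to 3 with single libraries left out, other deacetylases 2 with DESeq2, SIN3 genes 2 to 5 with single libraries left out, genes of other RBBP4 or RBBP7 complexes 3 with DESeq2 or the closest libraries summed and 3 to 6 with single libraries left out, genes of the NCoR complex 1 with upper-quartile scaling, DESeq2 or the closest libraries summed and 1 to 3 with single libraries left out, and recruiting factors 2 with no filter. The 8 paralog ratios kept their direction in all of their 10 alternatives, although MTA1 over MTA3 ranged from 0.047 to 0.22. RLE scaling and the replicate block are no check here. Scaling cancels in a ratio within a library, and the block leaves the difference of group means as it was.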
